A study of Malus domestica with 6 samples.

Results

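The 100 most abundant transcripts of apple peel took between 27.9% and 29.4% of all counts in each of 6 RNA-seq libraries. They were chosen by their level: counts were divided by the total of their library and scaled to a total of 1000000 (CPM), and the 100 gene identifiers with the highest mean CPM over the 6 libraries were kept. These are 100 of 46558 listed identifiers, or 0.290% of the 34458 that had at least 1 count. The selection sets 12 identifiers aside, of which 1, MD10G1328100 (mean 13975 CPM, 1.40% of all counts, rank 5 in the whole table), would otherwise have qualified. The level of the members is therefore a property of the choice and is given as a description. The ranking by mean CPM does not use the comparison between treatments, but the rule was set with earlier results of these data known.

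The libraries came from the pericarp of Fuji apples, labelled as epidermal cells and with the genotype WT in both groups. The treated apples were held under vacuum for 5 min with EGCG at 5 µmol per litre. EGCG, short for epigallocatechin-3-gallate, is a polyphenol best known from green tea. The control apples were treated in the same way in a liquid that the design text gives as ddH2O and the treatment label as ddH2O2. All fruit were then kept for 10 days. Of 30 apples in each treatment 3 were sequenced, which gives 3 EGCG and 3 control libraries, each taken as 1 apple. A single dose and a single time of storage were sampled. Total counts lay between 17564402 and 19549798.

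The peel consists of the epidermis under its waxy cuticle and the cell layers beneath it. Apple is a climacteric fruit, which goes on ripening after harvest under the control of ethylene, and the skin of stored fruit can turn greasy as components of its wax become more fluid. In ripening fruit, transcripts for pathogenesis-related proteins, lipid transfer proteins, metallothionein-like proteins and ripening enzymes are commonly among the abundant ones. Which members belong to such classes cannot be said here: the deposited tables give identifiers only, and 0 of the 100 members matched the available table of 51804 apple genes. Members are thus described by identifier, level, length and pattern across libraries. For the same reason the labelled tissue could not be checked against marker genes. In a bulk sample, fewer cells of a type and less of its RNA per cell cannot be told apart.

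The members spanned a 97.8-fold range of mean level, and a few of them held most of the counts. Mean CPM ran from 63747 for the first to 652 for the last, with a median of 1108. The first 4 members held 41.8% of the summed CPM of the 100 and the first 10 held 56.0%. The first 8 together exceeded all others. Of the 100, 4 had a mean of at least 10000 CPM, 11 of at least 5000, 25 of at least 2000 and 59 of at least 1000.

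The most abundant member was MD03G1210100, the first gene in every library. It stood at 63507, 54208 and 63214 CPM in the EGCG libraries and at 62819.6, 60429 and 78308 CPM in the control libraries. Control replicate 3 was the highest and EGCG replicate 2 the lowest, and the groups overlapped. Its share of all counts averaged 6.03% ± 0.529 after EGCG and 6.72% ± 0.971 in controls (SD, n = 3 each), which did not differ beyond the spread between libraries (exact permutation test, two-sided p = 0.6; 3 against 3 cannot go below 0.1). Without control replicate 3 the difference of -0.688 percentage points shrank to -0.131.

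3 further members exceeded 10000 CPM. MD13G1161400 stood at 28277, 20753 and 24355 CPM after EGCG and at 20415, 16264 and 23890.3 CPM in controls. MD16G1160700 stood at 19455, 17251 and 18339 CPM after EGCG and at 19194, 14394 and 17616 CPM in controls. In both genes control replicate 2 was the lowest library and EGCG replicate 1 the highest, with the groups overlapping. MD12G1187100 stood at 17528, 21389.8 and 16279 CPM after EGCG and at 18573, 18804 and 7507 CPM in controls. Here control replicate 3 lay apart, below the other 5 libraries, which were within a narrower range.

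Members 5 to 10 lay between 3723 and 9084 CPM in all libraries. The steadiest of these 6 was MD12G1141500, with 7304, 8012 and 7441 CPM after EGCG and 7837, 8811 and 7582 CPM in controls. MD02G1064800 stood at 8405, 6088 and 8151 CPM after EGCG and at 6511, 6561 and 9084 CPM in controls. MD15G1098800 repeated the low value of control replicate 3, with 6412, 7908 and 6007 CPM after EGCG and 8124, 8930.4 and 3723 CPM in controls. In each of these 3 genes the groups overlapped.

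On the CPM of the column total, MD05G1028100 was lower in every EGCG library than in any control. It stood at 6480.0, 4272 and 5469 CPM after EGCG and at 6684, 6721 and 8376 CPM in controls. EGCG replicate 1 came close to control replicate 1, and on TMM-scaled CPM, the scale of the fit below, the groups overlapped. There EGCG replicate 1 lay 0.0849 and control replicate 1 0.0685 log2 units above the mean of the gene. MD15G1120000 stood at 4842, 4328 and 7093 CPM after EGCG and at 7932, 5717 and 7777 CPM in controls, where EGCG replicate 3 exceeded control replicate 2. MD09G1069500, the longest of the first 10, stood at 6155, 6546 and 5963 CPM after EGCG and at 4585, 7280.1 and 5602 CPM in controls. The 3 EGCG values of this gene lay inside the range of the controls.

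**Figure D1:**
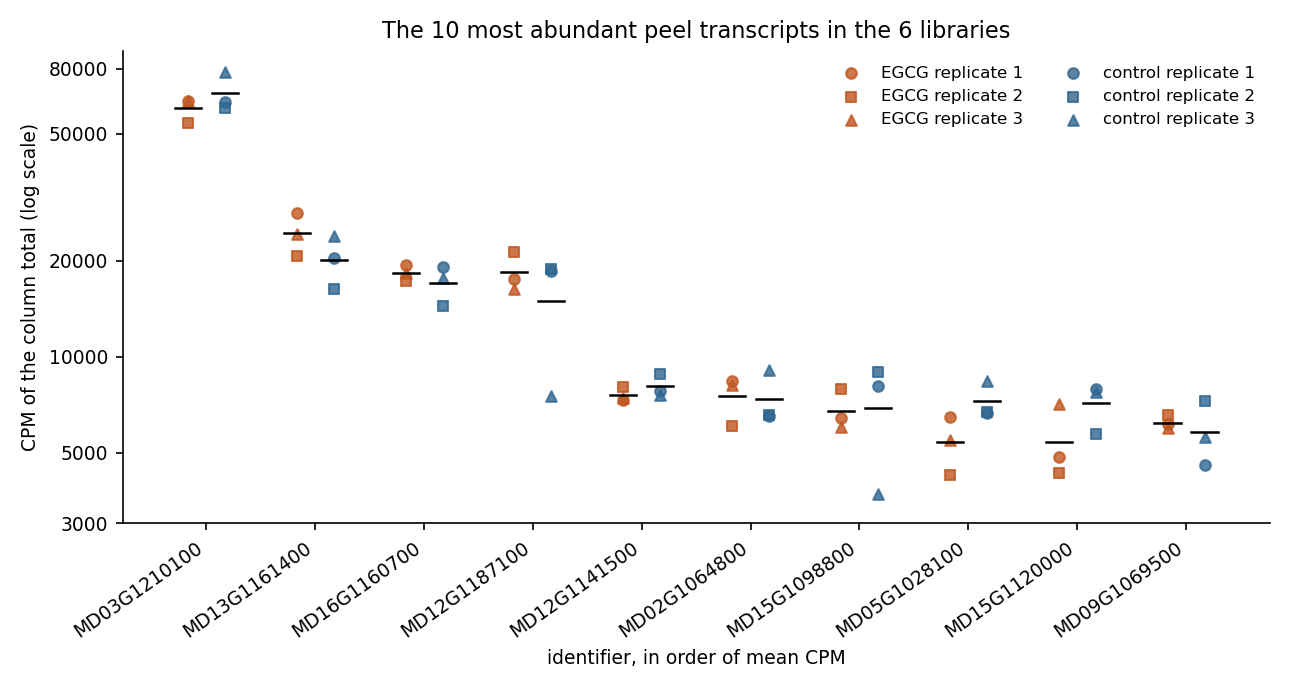
CPM (column total, log axis) of the 10 most abundant members in each library, with EGCG libraries left and controls right for each identifier, a symbol per replicate number and a black line at the group mean. MD03G1210100 is at 54208 CPM or more in every library, and control replicate 3 lies far below the other libraries for MD12G1187100 (7507 CPM) and MD15G1098800 (3723 CPM).

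The order by CPM favours long transcripts, so levels were also compared per length with the deposited FPKM (fragments per kilobase, scaled to the library total). MD03G1210100 (1821 bases) was first on this scale too, at 33119 ± 2903 FPKM after EGCG and 36895 ± 5330.3 FPKM in controls (SD, n = 3 each), above the second gene in 6 of 6 libraries. The next 3 were short transcripts: MD13G1161400 (905 bases) averaged 24669.6 FPKM over the 6 libraries, MD12G1187100 (770 bases) 21663 FPKM and MD16G1160700 (861 bases) 20567 FPKM. Their order was not stable. MD13G1161400 exceeded MD12G1187100 in 3 of 6 libraries, and MD12G1187100 exceeded MD16G1160700 in 4 of 6. MD12G1141500 (794 bases, 9863 FPKM) followed, below MD16G1160700 and above the next member, MD05G1028100, in 6 of 6 libraries. At the lower end of the first 10, neighbours in the order changed places between libraries.

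The median length of the members was 1703 bases, with quartiles at 1278.5 and 2166 bases. The 34458 genes with any count had a median of 1439 bases, and the next 100 identifiers in the order of mean CPM one of 1804 bases. Of the members, 15 were shorter than 1000 bases, against 29.9% of the genes with any count, but 4 of the first 10 were. A count per gene grows with length, so length is tied to the choice by CPM. The longest member was MD07G1149400, with 6262 bases, the last of the 100 by CPM and 848th by FPKM. Ranking by mean FPKM in place of mean CPM would have kept 76 of the 100 members, and ranking by median CPM 98.

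The limit of 100 falls in a dense part of the order. The last members inside were MD10G1049900 at a mean of 653 CPM and MD07G1149400 at 652 CPM. The first identifiers outside were MD00G1102700 at 642 CPM and MD10G1050200 at 641 CPM. MD10G1050200 reached 865 CPM in control replicate 3 and MD10G1049900 only 507 CPM there, so single libraries would place the limit elsewhere. Between 89 and 96 of the members were among the 100 most abundant of each library taken alone, and 76 were so in all 6. In the other direction, MD02G1139900 was so in only 2.

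The identifiers fall into 18 groups by the 2 digits after MD, and 17 of the groups held a member. The group with the digits 15 held most, with 10 members among its 3114 genes with any count. That with the digits 04 had the highest frequency, with 8 members among 1621 genes, or 4.94 per 1000, and the group with the digits 14 the lowest of those with a member, at 1.25 per 1000. The 1150 genes with the digits 00 held none. In 4 cases a pair of members lay within 10 places of each other in the list of identifiers. Over the 6 libraries the log2 CPM of MD03G1227300 and MD03G1227500, 2 places apart, both under 1000 bases and named after their values were seen, correlated with r = 0.75. For the other 3 pairs r lay between -0.46 and -0.19. Whether reads of near-identical genes were divided between such neighbours was not tested.

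The sum over all members was close in both treatments, and its difference depended on the genes summed, the measure and the libraries kept. It took 29.3%, 28.7% and 28.8% of the counts of the EGCG libraries and 28.7%, 27.9% and 29.4% of those of the control libraries, a mean of 29.0% ± 0.335 after EGCG and 28.7% ± 0.728 in controls (SD, n = 3 each). The difference of 0.299 percentage points changed sign, to -0.0672, without control replicate 2. With the most abundant gene left out of both the sum and the total, the other members took 24.6%, 24.6% and 24.0% of the remaining counts after EGCG and 23.9%, 23.3% and 23.4% in controls. On that basis all EGCG libraries lay higher, by a mean of 0.877 percentage points. With FPKM in place of counts the difference was 0.751 percentage points, and with the identifiers set aside kept in it was 0.867. No test is given for sums over members, which were chosen with results of these data known.

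Within that sum the layers differed in their order. Members 2 to 4 took 6.53%, 5.94% and 5.90% of the counts after EGCG and 5.82%, 4.95% and 4.90% in controls, so that all EGCG libraries lay higher. Members 5 to 10 took 3.96%, 3.72% and 4.01% after EGCG and 4.17%, 4.40% and 4.21% in controls, with all EGCG libraries lower. These layers were drawn after the values had been seen. In the remaining 90 members the shares lay between 12.5% and 13.6% after EGCG and between 12.4% and 12.5% in controls, with EGCG replicate 2 as the highest. Shares of 1 library are tied to each other, since a larger count for one gene lowers the share of the rest.

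**Figure D2:**
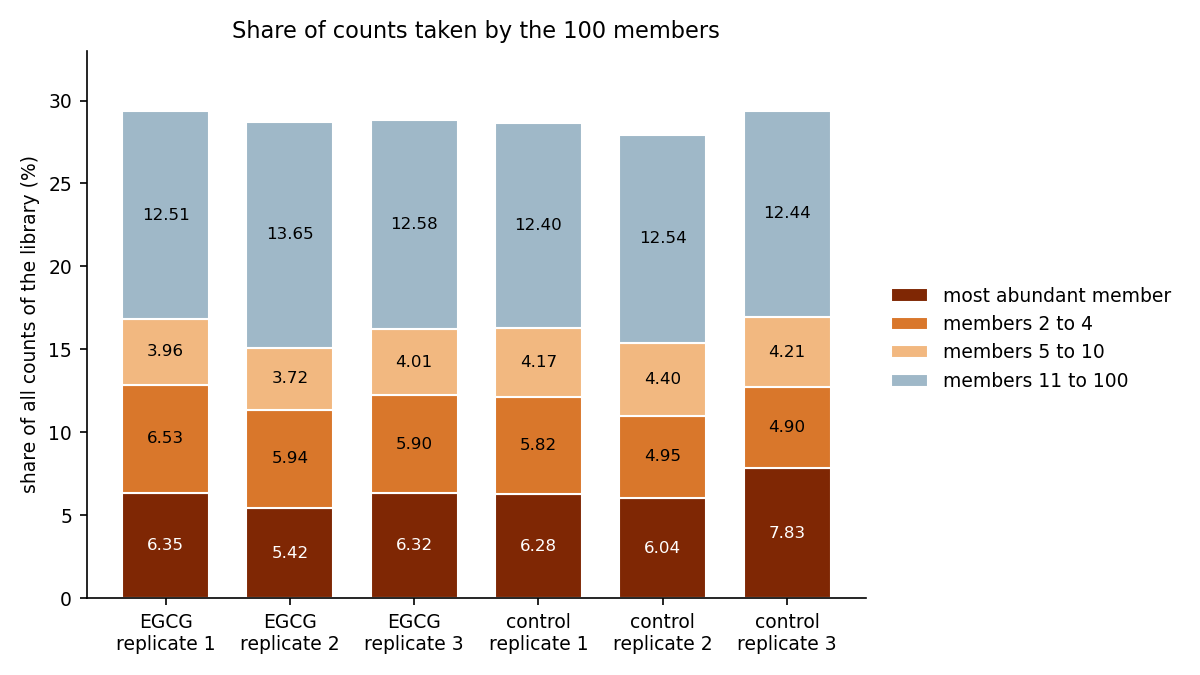
Share of all counts of each library (percent, bars from 0) taken by the most abundant member, members 2 to 4, members 5 to 10 and members 11 to 100, with EGCG libraries left of controls. The bars end between 27.9% and 29.4% in all 6 libraries, while the lowest layer runs from 5.42% in EGCG replicate 2 to 7.83% in control replicate 3.

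With edgeR's quasi-likelihood test, fitted to all 24960 genes with enough counts, 0 of the 100 members passed an adjusted p of 0.05 for EGCG against control. Of all tested genes 0% passed. All 100 members passed the filter on low counts. The smallest adjusted p of a member was 0.496 with edgeR. DESeq2's Wald test, run without that filter but with its own default one, called 0.763% of the 34450 genes with a p-value and again 0 members. Genes without a DESeq2 adjusted p count there as not called, and 0 members lacked one. The smallest DESeq2 adjusted p of a member was 0.0847, for MD01G1065600. At an unadjusted p under 0.05, edgeR gave 6 members, 3 higher and 3 lower after EGCG. Over all tested genes 8.71% did so, 4.33% higher and 4.38% lower, so the count of 6 in 100 was not above the background. DESeq2 gave 21 members at an unadjusted p under 0.05, 11 higher and 10 lower, against 6.19% of the 34450 genes. That share includes genes with low counts, which the edgeR share leaves out, so the 2 backgrounds are not alike. The next 100 identifiers by level had 12 such genes in edgeR and 19 in DESeq2.

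The fitted changes were small. The median log2 fold change of the members was 0.03 and that of all tested genes -0.0017. The median absolute log2 fold change was 0.15 in both and 0.11 over the next 100 identifiers by level. The fitted change was above 0 in 59 members and below 0 in 41, against 49.7% above 0 among all tested genes. A fitted fold of at least 1.5 was found in 2 members, against 9.85% of all tested genes. One of these, MD04G1198800, also exceeded 2-fold, which 3.68% of all tested genes did. It did so in 17 of 19 alternative fits, which reuse the same libraries. Without control replicate 2 its log2 fold change was 0.71, below 2-fold. Of the next 100 identifiers by level, 4 reached 1.5-fold and 0 reached 2-fold. The 95% interval of the log2 fold change, for 1 gene at a time, lay within a 2-fold change in either direction for 94 members, 9 of the first 10 among them, and within a 1.5-fold change for 51.

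**Figure D3:**
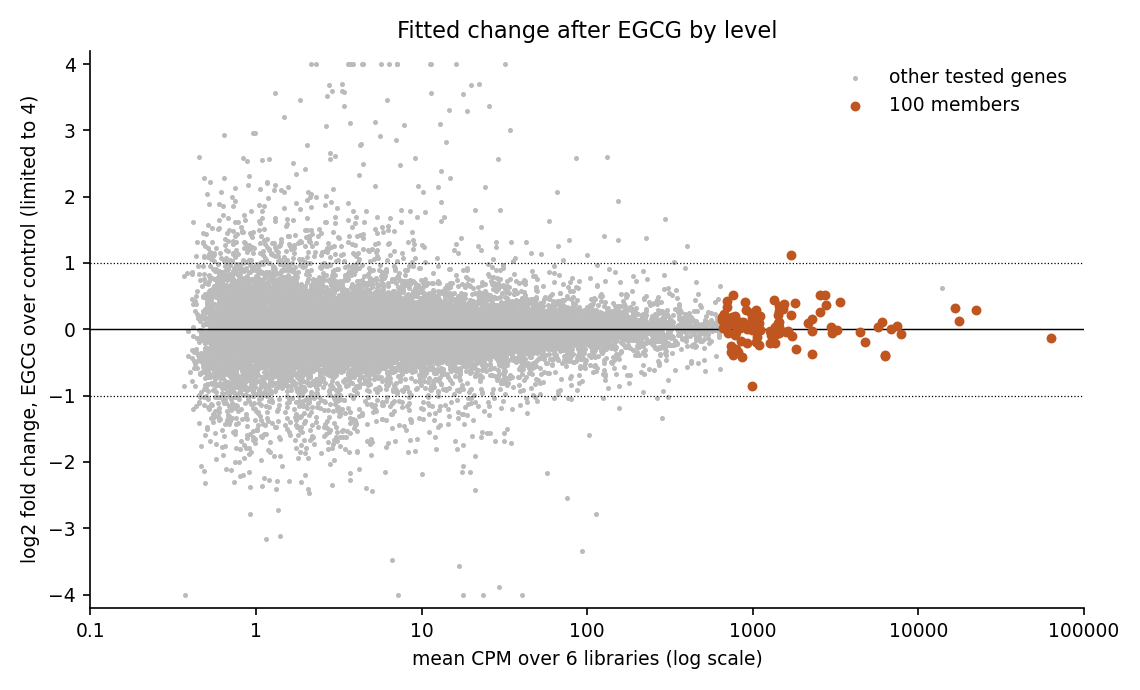
Fitted log2 fold change of EGCG over control (edgeR) against mean CPM (log axis) for the 24960 tested genes, the 100 members in colour and the other genes in grey, with dotted lines at a 2-fold change and values beyond 4 drawn at 4. Of the members 1, MD04G1198800, lies above the upper line, at a log2 fold change of 1.11.

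For the first 4 members the intervals were as follows. MD03G1210100 had a log2 fold change of -0.14 (SE 0.29, 95% interval -0.82 to 0.54). MD13G1161400 had one of 0.30 (SE 0.26, interval -0.30 to 0.89). MD16G1160700 had one of 0.13 (SE 0.22, interval -0.38 to 0.63). MD12G1187100 had one of 0.33 (SE 0.36, interval -0.50 to 1.16), the widest of the first 10 and the only one to reach beyond 2-fold. In edgeR their adjusted p-values lay between 0.772 and 0.920. For MD03G1210100 the sign was kept in 18 of 19 alternative fits, and for MD15G1098800, at a log2 fold change of -0.00, in 8 of 19.

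The values of the groups did not overlap in 16 members, with EGCG above control in 6 and below it in 10. Among all tested genes 14.4% were so separated, 6.29% upward and 8.13% downward. With TMM-scaled CPM, the scale of the fit, the members numbered 6 and 6, against 7.44% and 7.01% of all tested genes. On the CPM of the column total, the fitted log2 fold changes of the separated members ran from 0.26 to 1.11 upward and from -0.41 to -0.18 downward.

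The members with the smallest p upward were MD01G1065600 and MD01G1051900. MD01G1065600 had 2803, 3411 and 2777 CPM in EGCG libraries, against 2410.0, 2300.0 and 1709.9 CPM in control libraries. The groups were apart, with EGCG replicate 2 the highest and control replicate 3 the lowest library. It was 1.43-fold higher after EGCG (log2 fold change 0.51, SE 0.18, edgeR unadjusted p = 0.0219, adjusted p = 0.502). MD01G1051900 had 1041, 1159.7 and 851 CPM in EGCG libraries, against 767, 746 and 810.4 CPM in control libraries. The controls were close together, and EGCG replicate 3 lay nearest to them. It was 1.34-fold higher after EGCG (log2 fold change 0.42, SE 0.15, edgeR unadjusted p = 0.0238, adjusted p = 0.505).

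Downward, the smallest p-values were those of MD10G1221000 and MD15G1217900. MD10G1221000 had 681, 648 and 814 CPM in EGCG libraries, against 901, 948 and 917 CPM in control libraries. Again the controls were close together and EGCG replicate 3 lay nearest to them. It was 1.27-fold lower after EGCG (log2 fold change -0.35, SE 0.12, edgeR unadjusted p = 0.0197, adjusted p = 0.496). MD15G1217900 had 1968, 1981 and 1989 CPM in EGCG libraries, against 2388, 2509 and 2925 CPM in control libraries. In this gene the EGCG libraries were nearly equal and the controls spread. It was 1.30-fold lower after EGCG (log2 fold change -0.38, SE 0.14, edgeR unadjusted p = 0.0305, adjusted p = 0.536). The sign of the 4 genes was the same in 19 alternative fits each, which the separation of the groups nearly fixed, and their adjusted p ran from 0.0847 to 0.818 over these fits.

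The members were chosen for high counts, so their counting error was small by choice. The lowest count of a member in any library was 5487. For 1 library holding a member's mean count over the 6 libraries, the counting error was at most 0.905%. The coefficient of variation within groups had a median of 13.0%, beside a median counting error of 0.695%. These errors cover counting only.

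The spread within groups was near that of genes in general and above that of the next genes in level. The SD of log2 CPM within groups had a median of 0.19 over the members, 0.15 over the next 100 identifiers and 0.20 over all tested genes, in which low counts add to the spread. The highest library exceeded the lowest by less than 1.5-fold in 53 members, by less than 2-fold in 82 and by more than 2-fold in 18. Among the next 100 identifiers 71 stayed under 1.5-fold and 10 exceeded 2-fold. The spread was smaller among the EGCG libraries, with a median SD of 0.15 for the members, than among the controls, with 0.22; this difference was not tested. Over all tested genes the medians were 0.18 within EGCG and 0.19 within controls. The controls had the larger SD in 61 members, against 52.6% of all tested genes.

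The extremes were unevenly spread over the libraries. EGCG replicate 2 was the highest library in 29 members and control replicate 2 in 24, whereas EGCG replicate 3 was so in 9 and control replicate 1 in 8. Control replicate 2 was the lowest library in 25 members, EGCG replicate 3 in 4 and the other 4 libraries in 17 to 19 each. Over all tested genes EGCG replicate 2 was the highest in 15.8% and the lowest in 24.7%, and control replicate 2 the highest in 20.8% and the lowest in 19.3%. Of the 18 members that differed more than 2-fold between libraries, 9 were highest in EGCG replicate 2, 7 were lowest in control replicate 2 and 5 were lowest in control replicate 3.

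**Figure D4:**
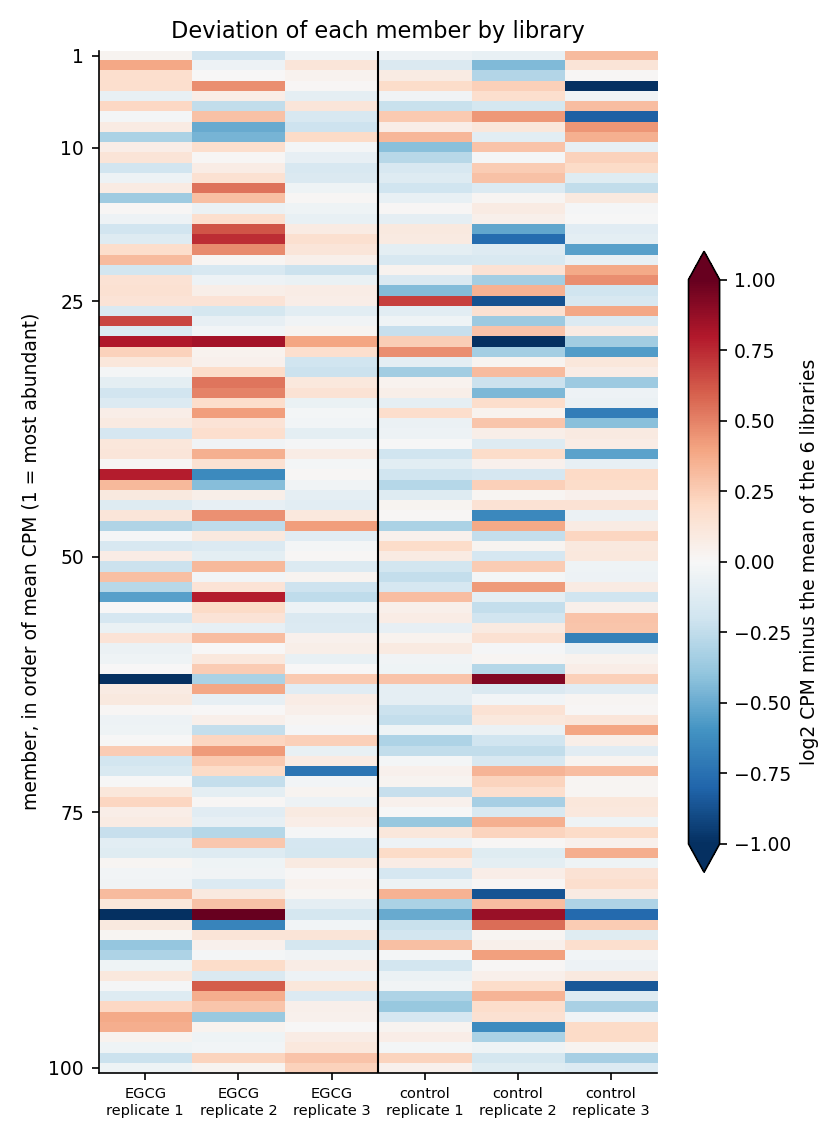
Log2 CPM of each of the 100 members minus its mean over the 6 libraries (colour, limited to 1 in either direction), members from top to bottom by falling mean CPM, EGCG libraries left and controls right of the line. The strong colours sit mostly in EGCG replicates 1 and 2 and control replicates 2 and 3, and EGCG replicate 3, with a median absolute deviation of 0.08, is the palest column.

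The members with the largest spread within groups were MD02G1139900 and MD04G1198800. MD02G1139900 had 293, 1837 and 548 CPM after EGCG and 439.7, 1109 and 352 CPM in controls, a 6.27-fold range with replicate 2 the highest in both groups. Its log2 fold change was 0.52 (SE 0.68, edgeR adjusted p = 0.855), and it ran over the alternative fits from -0.59 without EGCG replicate 2 to 1.48 without EGCG replicate 3 and control replicate 2 together. MD04G1198800 had 2497, 2528 and 1942 CPM after EGCG and 1774, 381 and 1137 CPM in controls. All EGCG libraries lay above all controls, and control replicate 2 lay far below the rest, which gave a 6.64-fold range. Its fitted fold of 2.16 was the largest of the 100 (log2 fold change 1.11, SE 0.46, 95% interval 0.04 to 2.18, edgeR unadjusted p = 0.0430, adjusted p = 0.563). Over the alternative fits the log2 fold change ran from 0.71 without control replicate 2 to 1.63 without control replicate 1, and the adjusted p from 0.228 to 0.829.

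The other member with a fitted fold of at least 1.5, named after its values were seen, was MD08G1143200. It had 331, 693 and 1074 CPM after EGCG and 1102, 1683 and 1033 CPM in controls. EGCG replicate 3 lay within the range of the controls, so the groups overlapped. The fitted value was 1.80-fold lower after EGCG (log2 fold change -0.85, SE 0.39, edgeR unadjusted p = 0.0592, adjusted p = 0.588).

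The steadiest members within groups were MD04G1159900 and MD17G1268700. MD04G1159900 had 2998, 2837 and 2982 CPM after EGCG and 3131, 3201 and 2974 CPM in controls, a 1.13-fold range with overlapping groups and a log2 fold change of -0.06 (95% interval -0.36 to 0.25). MD17G1268700 had 1217, 1245 and 1276 CPM after EGCG and 1417, 1497 and 1486 CPM in controls. Its groups were apart by more than either spread, at 1246 ± 29.8 CPM after EGCG and 1466 ± 43.5 CPM in controls (SD, n = 3 each). This 1.16-fold difference was not called in edgeR (log2 fold change -0.21, SE 0.11, unadjusted p = 0.0991, adjusted p = 0.632). That SE draws partly on the spread of other genes, while the gene's own SD of log2 CPM within groups was 0.05. DESeq2's Wald test gave an unadjusted p of 0.0176 and an adjusted p of 0.429.

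The pattern of the most abundant member across the libraries was shared by a few others and mirrored by others. Correlations are of log2 CPM over the same 6 libraries, which share a total, and are given as descriptions. MD04G1102200 followed MD03G1210100 most closely (r = 0.98), with 879, 759 and 927 CPM after EGCG and 917, 884 and 1197 CPM in controls. MD04G1185700 (r = 0.91), with 756, 698 and 819 CPM after EGCG and 781, 796 and 877 CPM in controls, and MD05G1028100 (r = 0.85) came next. All of these were lowest in EGCG replicate 2 and highest in control replicate 3.

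The most negative correlation was that of MD16G1108700 (r = -0.98). It had 655, 1001 and 739 CPM after EGCG and 673, 765 and 370.1 CPM in controls, highest where MD03G1210100 was lowest and lowest where it was highest. The most alike pair of all members, named after the values were seen, was MD12G1187100 and MD13G1273200 (r = 0.99). MD13G1273200 had 1116, 1248 and 1079 CPM after EGCG and 1086, 1145 and 639 CPM in controls, with the same drop in control replicate 3. Of the 4950 pairs of members 1.70% had r above 0.9, and of the pairs among the next 100 identifiers 1.41% did, so high values of r over 6 libraries also occurred outside the members at a like frequency.

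Neither of the first 2 principal components of the members, taken alone, separated the treatments. On the first principal component of their log2 CPM, with 37.5% of the variance, the EGCG libraries lay at -1.44, -1.80 and -0.49 and the controls at -0.62, 3.17 and 1.19. Control replicate 1 lay among the EGCG libraries and control replicate 2 apart from all others. The second component, with 34.3%, set EGCG replicate 2 (2.62) and control replicate 2 (1.52) against control replicate 3 (-2.11) and EGCG replicate 1 (-1.42). Across the members, the log2 CPM of control replicate 1 correlated at a mean r of 0.966 with the EGCG libraries and 0.944 with the other controls. The mean r of EGCG replicate 3 was 0.967 with the other EGCG libraries and 0.962 with the controls. Over all tested genes the order was the other way in both libraries: control replicate 1 had a mean r of 0.965 with EGCG and 0.972 with its own group, and EGCG replicate 3 one of 0.970 with its own group and 0.976 with the controls. These values are across genes, which are not independent replicates.

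**Figure D5:**
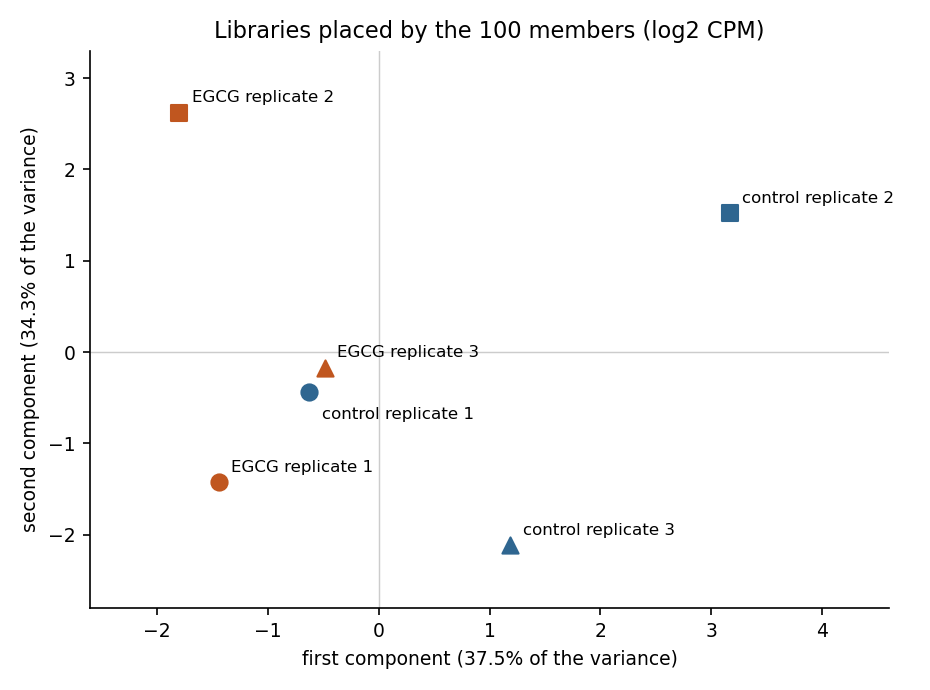
The 6 libraries on the first (37.5% of the variance) and second (34.3%) principal component of the log2 CPM of the 100 members, with EGCG in orange, controls in blue and a symbol per replicate number. EGCG replicate 3 and control replicate 1 lie beside each other near the centre, and control replicate 2 lies at 3.17 on the first component, apart from the other 5 libraries.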

How the data were processed

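Raw counts per gene identifier were used as the authors deposited them, in 1 table for 6 libraries. FPKM values, as deposited by the authors, were the same counts divided by the column total and 1 length per gene, which gave the lengths. Tools listed, per the submitters' processing notes, are DESeq2, R 3.2.0, HTSeq, HISAT2 and fastp. For genome build, annotation and strand: not given in the sources used here. P-values rest on these 3 apples a group. In edgeR and DESeq2 the spread used for a gene is drawn partly from other genes, so it can differ from that gene's own.

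CPM values use column totals. Tests used edgeR 4.0.16 in R 4.3.3 (glmQLFit, glmQLFTest, TMM, filterByExpr, group as the only term, all 6 libraries, EGCG minus control), adjusted by Benjamini and Hochberg over all tested genes, threshold 0.05, two-sided. Standard errors are the absolute log2 fold change over the root of F. Log2 CPM used TMM and a prior count of 2. Alternatives were DESeq2 1.42.0, limma 3.58.1 (voom, and trend on log2 FPKM), other scalings, filters, member rules, a replicate block and left-out libraries. Fits were tested on simulated data.

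The members and rules were chosen with earlier results of these data known, so summed shares of several members carry no test. Named members are the first 10 by CPM, the first 5 by FPKM, the 2 smallest p in each direction, the 2 largest and 2 smallest spreads, the 4 most like or unlike the first, and those beside the limit of 100.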

Additional observations from a re-analysis of the deposited data

How the results depend on the processing

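The count of 0 called members stayed at 0 in all 23 alternatives. The median log2 fold change of the members moved by less than the spread between libraries (0.04) in all of them, from 0.00 without control replicate 1 to 0.06 without EGCG replicate 3. The 6 members at an unadjusted p under 0.05 became 21 with DESeq2, 1 with log2(FPKM + 1) without a filter, 3 of the first 50, 18 of the first 200, 10 without EGCG replicate 3 and control replicate 2 together (chosen after seeing the data; 197 genes were called, 0 of them members), and between 2 and 10 with 1 library left out, lowest without EGCG replicate 2 and highest without control replicate 2. The cause was not tested. The difference in the share of counts reversed to -0.0672 percentage points without control replicate 2 and reached 0.661 without control replicate 3, the range with 1 library left out; its highest value was 0.877, without the most abundant gene. For the first member it ran from -1.03 to -0.131 percentage points with 1 library left out. With the replicate number as a block, 4 members were at an unadjusted p under 0.05 and 0 were called. In the labels, same-numbered libraries share only a number. Their deviations correlated at -0.16, 0.13 and 0.16 over all tested genes, and those of differently numbered libraries between -0.27 and 0.14. Whether they shared a batch was not tested. With 3 libraries a group, the 95% interval reached 0.39 to either side of the log2 fold change (median of the members), which limits what could be seen.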
